A study of Macaca mulatta with 8 samples.

Results

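RPGR (retinitis pigmentosa GTPase regulator) and 9 genes whose products work beside it at the photoreceptor cilium were followed in single-cell RNA sequencing libraries of macaque retina. The 10 genes, out of 26533 features counted, were chosen by name as RPGR, RPGRIP1, RPGRIP1L, TTLL5, CEP290, NPHP4, PDE6D, ARL3, IQCB1 and SPATA7. For 9 of them the symbol stood in the feature lists, and RPGR, which had no symbol there, was found through its gene identifier, ENSMMUG00000013491. All 10 were detected, and none was lost to a filter on low counts in any cell class tested.

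The 8 libraries came from both eyes of 2 male, wild-type macaques, with 2 libraries (right eye and left eye) in each of 4 groups. NHP1, aged 5 years, had received AAV2-CAG-hRPE65 under the retina of both eyes. Its libraries were labelled as uninjected retina, meaning retina outside the blebs, the pockets raised by subretinal injection. NHP2, aged 6 years, had received AAV8-GRK1-hRPGRco, which carries a codon-optimised human RPGR behind the photoreceptor promoter GRK1, and AAV8-GRK1-mScarlet, which carries a fluorescent reporter behind the same promoter, in separate blebs of both eyes. Its libraries came from the hRPGR bleb, the mScarlet bleb (a vector given at a lower dose and of another grade) and retina labelled uninjected. All eyes received subtenon triamcinolone, and the left eyes also intravitreal adalimumab, so eye and adalimumab cannot be told apart. Each group of NHP2 is a pair of areas of 1 animal, so its p-values measure only the spread between these libraries. The transgene was counted as a feature of its own, coRPGR, apart from native macaque RPGR.

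RPGR sits in the connecting cilium, the narrow bridge through which a photoreceptor moves proteins from its inner to its light-sensing outer segment. RPGRIP1 anchors it there, TTLL5 adds glutamate chains to its retinal isoform, and CEP290, NPHP4, IQCB1 and SPATA7 belong to the transition zone and ciliary base around it. PDE6D and ARL3 load and release lipid-anchored cargo on the way to the outer segment. Changes in RPGR cause X-linked retinitis pigmentosa, and each of several partners is linked to inherited retinal dystrophy in its own right. The counts do not separate isoforms, so the retinal isoform of RPGR, which ends in exon ORF15, was not told apart from the widespread one.

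In the RefSeq annotation of the macaque build Mmul_10, RPGR spans bases 38093843 to 38153771 of chromosome X on the minus strand and has 8 annotated transcripts with 15 to 19 exons. RPGRIP1 spans bases 83188904 to 83252520 of chromosome 7 on the plus strand. TTLL5 lies on the same chromosome at 137788514 to 138078116 on the plus strand, with 18 transcripts of 27 to 35 exons. The others are RPGRIP1L on chromosome 20 (40725436 to 40824845, minus), CEP290 on 11 (87710816 to 87806030, minus), NPHP4 on 1 (218540011 to 218676698, plus), PDE6D on 12 (119160068 to 119215366, minus), ARL3 on 9 (103199601 to 103249774, minus), IQCB1 on 2 (154482692 to 154556599, plus) and SPATA7 on 7 (150509091 to 150573074, plus). Of the 10 genes, 4 overlap another annotated gene, namely TTLL5 (ERG28, opposite strand, and a pseudogene on the same strand), CEP290 (C11H12orf29), NPHP4 (KCNAB2) and PDE6D (COPS7B). Whether the counting used strand is not given in the sources used here, so reads of these 4 may include some of their neighbours.

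The libraries held 90634306 to 146519011 unique molecular identifiers (UMIs, each 1 captured RNA molecule) and, after filters, 83192 cells with a median of 4606 to 6036 UMIs per library. The cone markers summed to 9540 to 15312 CPM (UMIs per 1000000 UMIs of a cell class in a library) in cone-like cells and to 11.4 to 232 CPM in rod-like cells, and cells like the retinal pigment epithelium, from which the retina had been lifted, numbered 0 to 74 per library. Of 86960 distinct cell barcodes, 4685 (5.39%) occurred in 2 or more libraries. All 4 libraries labelled uninjected held transgene molecules. Their cells held 9748 coRPGR UMIs in the right and 8 huRPE65 UMIs in the left area of NHP2, and 13 and 32627 huRPE65 UMIs in the right and left areas of NHP1. In rod-like cells the uninjected right area of NHP2 held 5052 coRPGR UMIs, and the uninjected left area of NHP1 held 14464 huRPE65 UMIs. In the mScarlet bleb of the right eye, rod-like cells held 818 coRPGR UMIs.

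In the classes as named here, RPGR itself was as high in rod-like as in cone-like cells and lower in Müller glia than in the neurons. Levels are unscaled CPM, as mean ± SD over libraries in which the class had at least 50 cells. They are a description without a test, because the classes come from clusters of the same cells, though none of the 10 genes was used to form the clusters. RPGR stood at 64.6 ± 4.73 CPM in rod-like cells (SD, n = 8) and at 63.7 ± 9.76 CPM in cone-like cells (SD, n = 8). In rod-like cells its values were 56.5 and 60.7 CPM in the right and left uninjected areas of NHP1, 61.7 and 66.2 in those of NHP2, 70.4 and 67.8 where hRPGR had been given, and 69.2 and 64.3 where mScarlet had. Cone-like cells were above rod-like cells in 4 of 8 libraries. Horizontal-like cells followed at 56.8 ± 11.3 CPM (SD, n = 6), bipolar-like cells at 38.04 ± 5.99 CPM (SD, n = 8), and Müller glia-like cells at 12.4 ± 2.01 CPM (SD, n = 8). Among the more abundant classes, only microglia or myeloid-like cells, at 24.6 CPM over 7 libraries, and Müller glia-like cells were neighbours in this order whose ranges did not overlap. The 10 unnamed clusters with rod markers and a low mitochondrial share lay outside the rod-like class. They held 119 ± 12.8 CPM of RPGR (SD, n = 8), above rod-like cells in 8 of 8 libraries. The cone-like class kept its own cluster of low mitochondrial share. The even level of RPGR in rods and cones is therefore that of the classes as named.

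**Figure D1:**
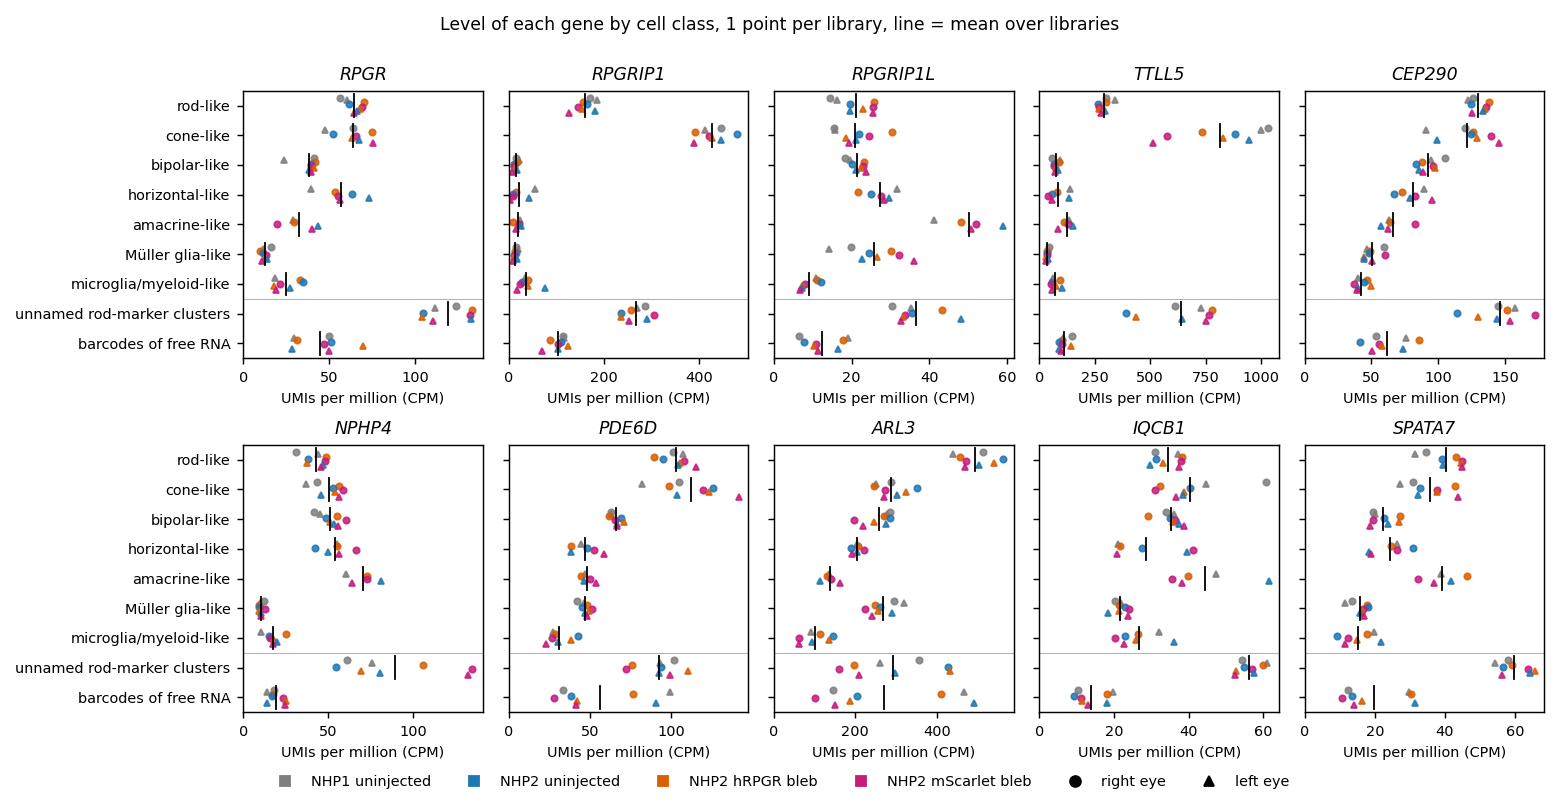
Level of each of the 10 genes (horizontal axis, UMIs per 1000000 UMIs of the class in a library, CPM, from 0) in 8 cell classes and in barcodes of free RNA (rows). Each point is a library, coloured by group, with circles for right and triangles for left eyes and a line at the mean over libraries. RPGRIP1 and TTLL5 have their highest means in cone-like cells, at 426 and 814 CPM, while RPGR is level between the rod-like and cone-like classes as named, at 64.6 and 63.7 CPM.

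RPGRIP1, which anchors RPGR at the connecting cilium, had the largest difference between rod-like and bipolar-like cells of the 10 genes. It stood at 426 ± 30.0 CPM in cone-like cells (SD, n = 8) and at 160 ± 19.1 CPM in rod-like cells (SD, n = 8), and of the other named classes RPE-like cells, with 2 libraries, held 48.3 CPM and microglia or myeloid-like cells 37.0 CPM. Cone-like and rod-like cells did not overlap, since cone-like libraries ran from 389 to 479 CPM and rod-like libraries from 126 to 184 CPM. Bipolar-like and Müller glia-like cells held 14.9 and 14.3 CPM. On the log2(CPM + 1) scale rod-like minus bipolar-like cells came to 3.39 ± 0.29 (SD, n = 8 libraries). RPGRIP1L, a relative of RPGRIP1 that serves the transition zone of cilia in many tissues, had a different order. Its highest mean among named classes was in amacrine-like cells, at 50.2 CPM over 5 libraries, above ganglion-like cells at 38.3 CPM over 3 libraries, horizontal-like cells at 27.3 CPM and Müller glia-like cells at 25.8 ± 7.03 CPM (SD, n = 8). Rod-like and cone-like cells held 21.2 and 20.8 CPM of RPGRIP1L, and their ranges overlapped with those of bipolar-like cells.

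TTLL5, the enzyme that glutamylates RPGR, followed the same order as RPGRIP1 at its upper end. Cone-like cells held 814 ± 193 CPM (SD, n = 8), with a lowest library of 511 and a highest of 1031 CPM. Rod-like cells held 291 ± 25.5 CPM (SD, n = 8), from 265 to 343 CPM, so the ranges of both classes as named stayed apart. The unnamed clusters with rod markers, left out of the rod-like class, held 638 CPM, from 389 to 779 CPM, which overlaps the cone-like range. The cone-like class kept its own cluster of low mitochondrial share, with 1189 to 1577 CPM of TTLL5. Bipolar-like cells held 75.5 CPM and Müller glia-like cells 35.2 CPM. Cone-like minus rod-like cells came to 1.45 ± 0.33 on the log2(CPM + 1) scale for TTLL5 and to 1.41 ± 0.15 for RPGRIP1 (SD, n = 8 libraries each), and both were higher in cone-like cells in 8 of 8 libraries.

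The genes of the transition zone and ciliary base followed no single order over the classes. CEP290, a scaffold between the ciliary membrane and the microtubules, stood at 130 ± 6.33 CPM in rod-like cells and 122 ± 18.7 CPM in cone-like cells (SD, n = 8 each), against 92.4 CPM in bipolar-like and 50.3 CPM in Müller glia-like cells. NPHP4, a nephrocystin, was the exception among the 10 genes in that rod-like cells, at 42.5 CPM, were below bipolar-like cells, at 51.3 CPM, in 8 of 8 libraries. This order is that of the rod-like class alone. The unnamed clusters with rod markers, left out of that class, held 89.1 ± 31.2 CPM of NPHP4 (SD, n = 8). Amacrine-like cells held 70.2 CPM of NPHP4 over 5 libraries and Müller glia-like cells 10.3 CPM. IQCB1, also named nephrocystin 5 and a binding partner of CEP290, differed little between cone-like (40.4 CPM), bipolar-like (35.3 CPM) and rod-like cells (34.5 CPM). SPATA7, which holds RPGRIP1 and other proteins at the connecting cilium, stood at 40.2 CPM in rod-like cells, 35.6 CPM in cone-like cells and 15.8 CPM in Müller glia-like cells.

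ARL3, the GTPase that releases lipid-anchored cargo in the cilium, was higher in rod-like than in cone-like cells. Rod-like cells held 495 ± 43.2 CPM (SD, n = 8), from 439 to 564 CPM, and cone-like cells 288 ± 36.3 CPM (SD, n = 8), without overlap. This order is that of the classes as named. The unnamed clusters with rod markers held 293 CPM of ARL3, from 159 to 433 CPM, close to cone-like cells. Cone-like minus rod-like cells came to -0.78 ± 0.07 on the log2(CPM + 1) scale (SD, n = 8 libraries). Müller glia-like and bipolar-like cells, at 267 and 257 CPM, were close to cone-like cells in ARL3, and barcodes of 100 to 1000 UMIs, taken here as free RNA, held as much, at 269 CPM on average and 100 to 490 CPM over the libraries. PDE6D, the carrier of prenylated proteins, stood at 113 ± 18.6 CPM in cone-like and 103 ± 7.93 CPM in rod-like cells (SD, n = 8 each), and bipolar-like cells, at 66.0 CPM, lay below rod-like cells in every library without overlap of the ranges.

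Across the 10 genes, 7 were higher in rod-like than in bipolar-like cells in all 8 libraries, 1 (NPHP4) was lower in all 8, and RPGRIP1L and IQCB1 were mixed. Between cone-like and rod-like cells, 2 genes (RPGRIP1 and TTLL5) were higher in cone-like cells in all 8 libraries and 2 (ARL3 and SPATA7) were lower in all 8. The other 6, RPGR among them, went in both directions over libraries.

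**Figure D2:**
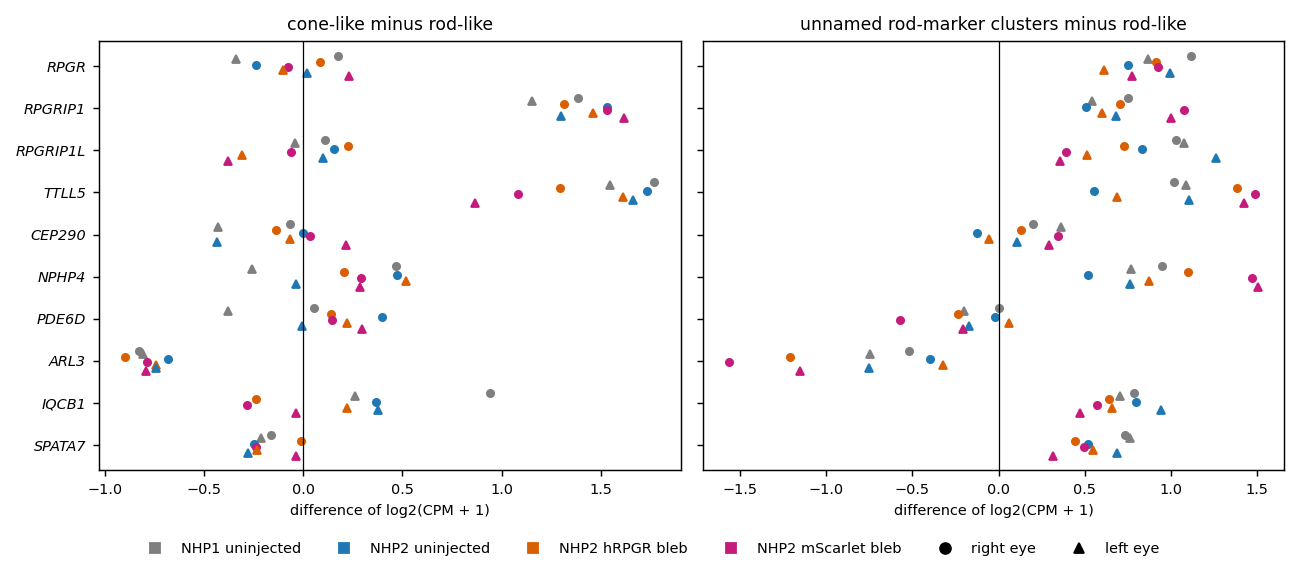
Differences of log2(CPM + 1) per library (horizontal axis) for the 10 genes (rows), cone-like minus rod-like cells on the left and the 10 unnamed clusters with rod markers and a median mitochondrial share under 1% minus rod-like cells on the right. Points are libraries, coloured by group, with circles for right and triangles for left eyes. RPGRIP1 and TTLL5 lie to the right of 0 in all 8 libraries on the left side, with means of 1.41 and 1.45, and ARL3 lies to the left of 0 in all 8 libraries on both sides.

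The share of cells with at least 1 UMI, after each cell was thinned to 3000 UMIs, gave the same picture. Cells with fewer than 3000 UMIs were left out of these shares. RPGR had a UMI in 13.8% to 18.8% of rod-like cells and in 11.5% to 21.9% of cone-like cells over the 8 libraries, against 2.35% to 3.55% of Müller glia-like cells. RPGRIP1 had a UMI in 28.1% to 40.5% of rod-like, 58.9% to 76.1% of cone-like and 2.10% to 5.56% of Müller glia-like cells. For TTLL5 the shares were 45.4% to 60.9%, 79.7% to 95.1% and 7.24% to 9.49%. RPGRIP1L had a UMI in 3.71% to 8.16% of rod-like and 3.70% to 10.5% of Müller glia-like cells. Free RNA contained 44.7 CPM of RPGR, 104 CPM of RPGRIP1 and 110 CPM of TTLL5 on average. It held 61.8 CPM of CEP290, 56.3 CPM of PDE6D, and 12.5 to 19.8 CPM of RPGRIP1L, IQCB1, NPHP4 and SPATA7. All of the 10 genes but RPGRIP1L and IQCB1 had a higher mean in free RNA than in Müller glia-like cells, ARL3 by a small margin.

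Of the clusters left unnamed, 10 were set apart here by 2 criteria, rod as clearly the best-scoring class and a median mitochondrial share under 1% of UMIs. Cluster 18, with rod markers and a share of 1.10%, and unnamed clusters that mixed rod with other markers were not among them. The 10 had been kept out of the rod-like class because rod markers did not lead their genes or haemoglobin genes did. In these clusters 7 of the 10 genes were higher than in rod-like cells of the same library in all 8 libraries. TTLL5 led with a difference of 1.09 ± 0.34 on the log2(CPM + 1) scale, followed by NPHP4 at 0.99 ± 0.35 and RPGR at 0.87 ± 0.16 (SD, n = 8 libraries each). RPGR stood at 119 ± 12.8 CPM there and TTLL5 at 638 ± 151 CPM (SD, n = 8 each). ARL3 went the other way, at 293 ± 105 CPM, and was lower in all 8 libraries, with a mean difference of -0.83 ± 0.44 on the log2(CPM + 1) scale (SD, n = 8). CEP290 and PDE6D were mixed, higher in 6 and in 2 of 8 libraries. The median mitochondrial share was 0.0547% to 0.828% of UMIs in these clusters and 0.108% to 3.47% in the named rod-like clusters, a difference the choice of clusters helped to set, and its part in the differences was not tested.

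Over 59 sums of a class in a library, the 5 genes whose log2(CPM + 1) was most like that of RPGR by Pearson's r, among 10474 genes compared, were MSH3 (0.917), MADD (0.894), TLK2 (0.894), WDPCP (0.889) and SRRM3 (0.881). Those most like RPGRIP1 were MPP4 (0.971), ENSMMUG00000060308 (0.970), EYS (0.966), ENSMMUG00000064071 (0.959) and ARMC9 (0.953). EYS and MPP4 are both known as photoreceptor genes. Within the 10 genes the closest pair was RPGRIP1 with TTLL5 at 0.899, RPGR stood at 0.570 with RPGRIP1 and at 0.759 with TTLL5, and RPGRIP1 with RPGRIP1L was the least alike at 0.016. The sums share libraries and sequencing depth, so these values are descriptions.

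Levels of coRPGR in photoreceptors were higher in the right than in the left hRPGR bleb. Rod-like cells held 3828 CPM of coRPGR in the right and 1411 CPM in the left hRPGR bleb, and cone-like cells 12034 and 391 CPM. After thinning, 97.3% of 4267 rod-like cells in the right bleb had a coRPGR UMI (95% exact binomial interval 96.7% to 97.7%) and 64.7% of 3971 in the left (63.2% to 66.2%). All 316 cone-like cells of the right bleb had one, but only 33.2% of 187 in the left (26.5% to 40.4%). In Müller glia-like cells the shares were 57.2% in the right and 31.7% in the left bleb. The GRK1 promoter is not known to be active there, and the paper describes low off-target transgene expression in Müller glia. Expression and free RNA were not told apart here. The share of rod-like cells lay above that of Müller glia-like cells in both blebs. In the left bleb the share of cone-like cells was close to that of Müller glia-like cells. The CPM of Müller glia-like cells was 444 in the right and 187 in the left bleb, below that of cone-like cells in both. Free RNA held 3482 and 2251 CPM, which is close under the level of rod-like cells in the right bleb and above it in the left, so these shares count cells with a UMI and not cells that express the transgene. In the uninjected right area, rod-like cells held 157 CPM of coRPGR, with a UMI in 13.9% of 4555 thinned cells, against 6.84% of 468 Müller glia-like cells. In the mScarlet bleb of the right eye, rod-like cells held 26.2 CPM. These intervals cover counting error only.

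The question of the next comparisons was whether the native gene and its partners differed between areas of NHP2 that had received the RPGR vector, the reporter vector or no injection. In rod-like cells none of the 10 genes was called between the hRPGR bleb and the uninjected area. UMIs were summed per library and class and tested with edgeR's quasi-likelihood test, with Benjamini-Hochberg adjustment over all genes tested. Of 14386 genes 0% were called in this comparison, 5.66% had an unadjusted p under 0.05, and 1 of the 10 genes did (RPGRIP1L). DESeq2 also called 0 of the 10. Values in the rest of the text are CPM scaled by edgeR's TMM factors, right eye first, unless another scale is named. The TMM factors moved differences of the mScarlet bleb from the uninjected area by -0.13 on the log2 scale in rod-like and by -0.13 in cone-like cells, and differences of the other comparisons between areas by less than 0.1.

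Native RPGR in rod-like cells stood at 67.4 and 69.4 CPM in the hRPGR blebs and at 67.4 and 67.1 CPM in the uninjected areas. The hRPGR blebs lay just above both uninjected areas, and edgeR gave a log2 difference of 0.02 with a standard error of 0.08 (adjusted p = 0.957). Without the uninjected right area, which held coRPGR UMIs, the difference was 0.04 (adjusted p = 0.979), and 0 of the 10 genes and 2 of all genes were called. RPGRIP1 stood at 150 and 158 CPM against 181 and 183 CPM in the uninjected areas, without overlap. Its log2 difference was -0.24 with a standard error of 0.10 (edgeR, unadjusted p = 0.056, adjusted p = 0.851). TTLL5, at 286 and 277 CPM against 290 and 303 CPM, had a log2 difference of -0.07 with a standard error of 0.09. RPGRIP1L was the one with the lowest unadjusted p, 0.037, at 24.7 and 23.6 CPM against 21.4 and 19.8 CPM (adjusted p = 0.851). ARL3 had 438 and 554 CPM against 616 and 511 CPM, so the areas overlapped. Between these areas 32.7% of all genes tested did not overlap, against 4 of the 10 genes (RPGR, RPGRIP1, RPGRIP1L and TTLL5).

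In rod-like cells of the mScarlet bleb RPGRIP1 lay below both uninjected areas, as many genes did, but none of the 10 genes passed the test. Of 14386 genes tested, 4533 had both mScarlet blebs above both uninjected areas and 3992 had both below, against 2 and 4 of the 10 genes. RPGRIP1 stood at 141 and 119 CPM in the mScarlet blebs against 181 and 183 CPM, a log2 difference of -0.48 with a standard error of 0.10 (edgeR, unadjusted p = 0.00265, adjusted p = 0.063). Of all genes 1.89% were called here and 24.1% had an unadjusted p under 0.05, against 0 and 2 of the 10 genes, while DESeq2 called 1 (RPGRIP1). The adjusted p of RPGRIP1 ranged from 0.00112 to 0.456 over 13 settings and was under 0.05 in 4 of them. It was 0.0356 and 0.0362 without the right and the left hRPGR bleb, libraries that only add to the estimate of spread here. With the eye as a block it was 0.158, and the count over all genes fell from 272 to 4. Without the uninjected right area the adjusted p was 0.197, and the count over all genes was again 4. RPGRIP1L stood at 24.9 and 24.0 CPM against 21.4 and 19.8 CPM (log2 difference 0.25, edgeR adjusted p = 0.152). ARL3 had 461 and 443 CPM against 616 and 511 CPM (log2 difference -0.32, adjusted p = 0.262), and RPGR 67.5 and 60.9 CPM against 67.4 and 67.1 CPM. Between the mScarlet and hRPGR blebs edgeR called 0.0139% of all genes in rod-like cells and 0 of the 10 genes. None of the 10 had an unadjusted p under 0.05, against 8.06% of all genes, and DESeq2 called none of them.

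The clusters that made up rod-like cells differed between libraries, though not by area alone. Cluster 0 held 64.4% and 69.9% of rod-like cells in the uninjected areas and 40.8% in the left hRPGR bleb. In the right hRPGR bleb most came from cluster 3 (37.7%), cluster 1 (31.5%) and cluster 4 (22.7%), which also held 21.3%, 29.5% and 26.8% in the right and 11.4%, 34.2% and 27.8% in the left mScarlet bleb. Cluster 1 had a median mitochondrial share of 0.119% of UMIs, within the range of the unnamed clusters with rod markers. Markers of immune cells summed to 75.0 and 84.4 CPM in the rod-like sums of the uninjected areas, 206 and 115 CPM in the hRPGR blebs and 232 and 295 CPM in the mScarlet blebs (unscaled). The median mitochondrial share was 0.933% and 0.938% of UMIs in rod-like cells of the uninjected areas, 0.688% and 0.960% where hRPGR had been given, and 0.718% and 0.667% where mScarlet had. A sum of 7 rod markers (NRL, NR2E3, PDE6B, GNAT1, CNGA1, PDE6A and SAG) came to 20526 and 19583 CPM, 15719 and 19472 CPM, and 15890 and 14898 CPM (all unscaled) in the same order. Median UMIs per rod-like cell were 6664 and 7286, 4913 and 5957, and 5536 and 5100. The part of these differences in the levels above was not tested.

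In cone-like cells TTLL5 fell in the mScarlet bleb, and it was the 1 gene of the 10 called by edgeR, as fitted here, in any comparison. It stood at 556 and 480 CPM in the mScarlet blebs, at 729 and 865 CPM in the hRPGR blebs and at 919 and 981 CPM in the uninjected areas. The 3 areas did not overlap, and the mScarlet blebs were the lowest. The log2 difference from the uninjected areas was -0.87 with a standard error of 0.13 (edgeR, unadjusted p = 0.000175, adjusted p = 0.041). In this comparison 0.652% of 11660 genes were called (76 genes, of which 23, or 0.197% of all genes tested, were lower), and 50.1% of all genes did not overlap between the areas, against 1 of the 10 genes called and 6 not overlapping. The call was lost with the eye as a block, where the difference was again -0.87 but the adjusted p was 0.099 and the count over all genes went from 76 to 24. It was also lost without any of the 4 libraries compared, at adjusted p-values of 0.137 without the uninjected right area, which held coRPGR UMIs, 0.254 without the uninjected left area, 0.127 without the right and 0.324 without the left mScarlet bleb. Over 13 settings the difference ran from -0.99 to -0.76 and the adjusted p from 4.49e-09 to 0.324, with 8 of them under 0.05.

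The cone-like class was small and of unequal make-up. It held 373 and 421 cells in the uninjected areas, 382 and 188 under hRPGR, and 370 and 129 under mScarlet. Cluster 21 held 77.5% and 65.3%, 43.5% and 79.8%, and 55.4% and 86.8% of them, and cluster 33, with a median mitochondrial share of 0.065% to 0.105% of UMIs, was where TTLL5 was highest, at 1577, 1548 and 1189 CPM (unscaled) in the 3 libraries with at least 50 of its cells. Cluster 33 made up 12.9% and 25.9% of cone-like cells in the uninjected areas, 19.1% and 15.4% under hRPGR, and 8.38% and 11.6% under mScarlet. Cluster 58, found in the right mScarlet bleb alone, was 23.5% of its cone-like cells and held 220 CPM of TTLL5 (unscaled) at a median of 1720 UMIs per cell. Cluster 57 was 21.7% of cone-like cells in the right hRPGR bleb. It held 359 CPM of TTLL5 (unscaled) there, at a median of 3131 UMIs per cell. The part of these clusters in the level of TTLL5 over the whole class was not tested beyond the fit on cluster 21 that follows. Within cluster 21 alone TTLL5 stood at 813 and 806 CPM (unscaled) in the uninjected areas, 629 and 745 where hRPGR had been given, and 576 and 462 where mScarlet had, and edgeR on this cluster, an alternative added after the data were seen, gave a log2 difference of -0.78 and an adjusted p of 0.00981. This fit called 538 of 10831 genes, against 76 of 11660 in the main fit. Neither the eye as a block nor leaving out a library was run on cluster 21 alone. The blue-cone opsin OPN1SW stood at 161 to 333 CPM (unscaled) in 5 cone-like sums of NHP2 and at 1.03 CPM in the left mScarlet bleb. Markers of immune cells summed to 10.6 and 17.5 CPM in the cone-like sums of the uninjected areas, 27.1 and 11.7 under hRPGR and 34.9 and 24.5 under mScarlet (all unscaled). The part of OPN1SW or of immune RNA in the level of TTLL5 was not tested. Median UMIs per cone-like cell were 20384 and 23446 in the mScarlet blebs against 17526 and 13187 in the uninjected areas.

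**Figure D3:**
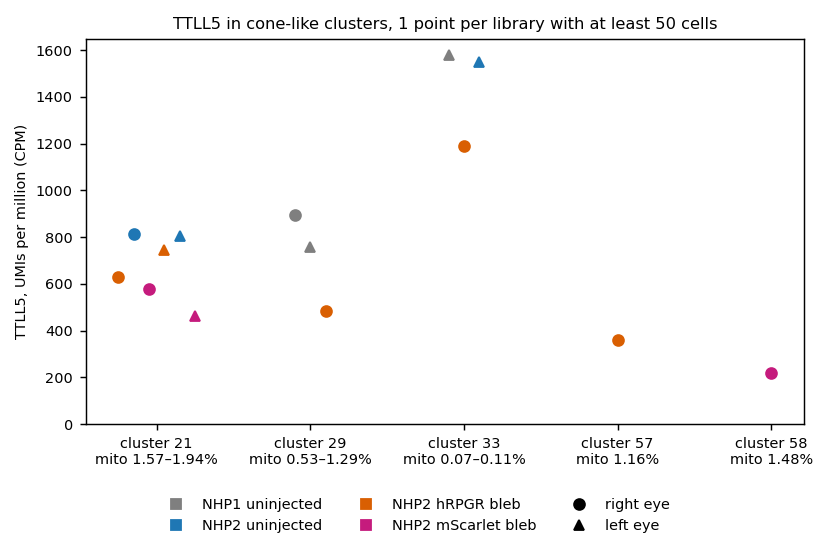
TTLL5 (vertical axis, unscaled CPM from 0) in each cone-like cluster (horizontal axis, with the median share of mitochondrial UMIs over its libraries), 1 point per library with at least 50 cells of the cluster, coloured by group with circles for right and triangles for left eyes. Cluster 33 holds the highest values, 1189 to 1577 CPM, and in cluster 21 the mScarlet blebs, at 576 and 462 CPM, lie below the uninjected areas, at 813 and 806 CPM.

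The other 9 genes were not called in cone-like cells. RPGRIP1 stood at 406 and 366 CPM in the mScarlet blebs against 499 and 461 CPM in the uninjected areas (log2 difference -0.31, edgeR adjusted p = 0.262), and IQCB1 at 30.0 and 34.4 CPM against 42.2 and 39.96 CPM (log2 difference -0.37, adjusted p = 0.288). Both had an unadjusted p under 0.05, as did 15.8% of all genes. RPGR, at 63.4 and 71.0 CPM against 54.3 and 69.6 CPM, overlapped. Between the hRPGR bleb and the uninjected area 0.0172% of all genes were called by edgeR and 0 of the 10 genes. None of the 10 had an unadjusted p under 0.05, against 6.19% of all genes, and DESeq2 called none of them. The hRPGR side of the cone-like comparisons was uneven in transgene. Cone-like cells held 12034 CPM of coRPGR (unscaled) in the right but only 391 CPM in the left hRPGR bleb. These results are therefore for both blebs together and not for cones rich in the transgene alone. RPGR stood at 74.3 and 65.8 CPM in the hRPGR blebs (log2 difference 0.18, standard error 0.15) and TTLL5 had a log2 difference of -0.25 (standard error 0.13, edgeR adjusted p = 0.839). SPATA7, at 42.4 and 39.2 CPM against 34.1 and 33.6 CPM, had the lowest unadjusted p of the 10 there, 0.056. Between the mScarlet and hRPGR blebs edgeR called 0.111% of all genes and 0 of the 10. Of all genes 8.56% had an unadjusted p under 0.05, and of the 10 only TTLL5 did (log2 difference -0.62, standard error 0.13, unadjusted p = 0.00153, adjusted p = 0.312). DESeq2 called TTLL5 in it, and over 13 settings its adjusted p ran from 0.000571 to 0.999.

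**Figure D4:**
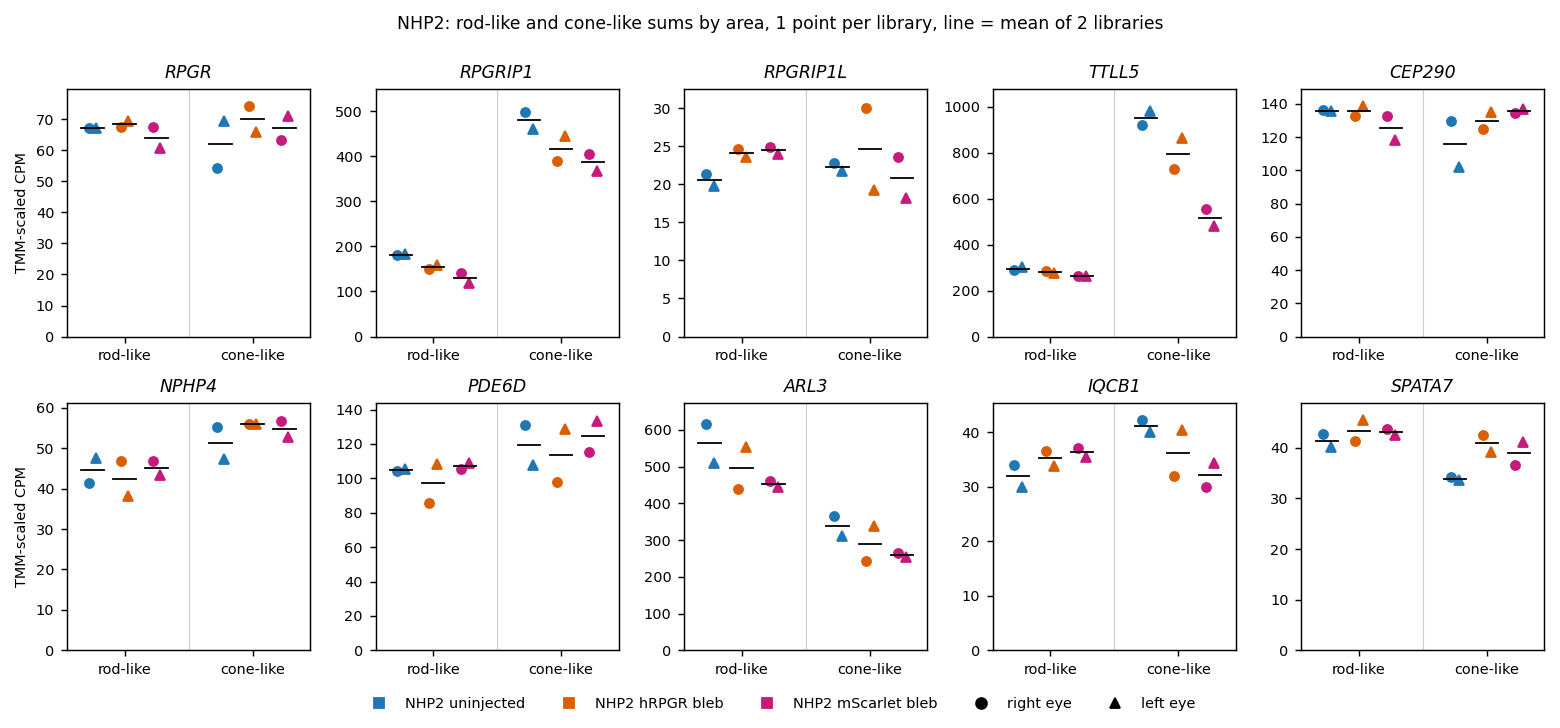
Levels of the 10 genes in NHP2 (vertical axis, TMM-scaled CPM from 0) in rod-like and cone-like cells of the uninjected areas, hRPGR blebs and mScarlet blebs, with a circle for the right and a triangle for the left eye and a line at the mean of both. In cone-like cells TTLL5 steps down from 919 and 981 CPM in the uninjected areas to 556 and 480 CPM in the mScarlet blebs, while RPGR in rod-like cells stays between 60.9 and 69.4 CPM.

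In bipolar-like cells 0% of 12989 genes were called between the hRPGR bleb and the uninjected area, and of the 10 genes 0 were called and none had an unadjusted p under 0.05, against 3.62% of all genes. In the mScarlet bleb 0.785% of all genes were called and 0 of the 10, and 11% of all genes and 1 of the 10 had an unadjusted p under 0.05. ARL3 had the lowest unadjusted p there, 0.00203, at 201 and 217 CPM against 288 and 274 CPM (log2 difference -0.43, edgeR adjusted p = 0.141), and its adjusted p was 0.315 without the uninjected right area. Free RNA held 100 and 149 CPM of ARL3 (unscaled) in the mScarlet blebs against 205 and 490 CPM in the uninjected areas. The part of free RNA in the level of ARL3 in bipolar-like or rod-like cells was not tested. DESeq2 called none of the 10 genes in either comparison of bipolar-like cells.

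In Müller glia-like cells 0.00781% of all genes were called in the hRPGR bleb and 0.383% in the mScarlet bleb, both against the uninjected area, and 0 of the 10 genes in either. An unadjusted p under 0.05 was found for 3.93% of all genes and 1 of the 10 in the hRPGR bleb and for 14.7% and 4 of the 10 in the mScarlet bleb, and DESeq2 called none of the 10. RPGRIP1 had the largest difference of the 4 in the mScarlet bleb, at 9.88 and 8.08 CPM against 16.5 and 18.9 CPM (log2 difference -0.98, standard error 0.19, edgeR adjusted p = 0.098). Without the uninjected right area, which held coRPGR UMIs, its adjusted p was 0.0490, and over 12 settings it ran from 0.0490 to 0.515. The same 7 rod markers summed to 943 and 836 CPM (unscaled) in the Müller glia-like sums of the mScarlet blebs against 1642 and 2128 CPM in the uninjected areas, and the cone markers to 21.3 and 15.8 CPM against 30.7 and 207 CPM. The part of photoreceptor RNA in this difference was not tested. RPGRIP1L was higher, at 30.8 and 35.2 CPM against 25.2 and 23.1 CPM (log2 difference 0.45, adjusted p = 0.198).

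Lists of other ciliary genes gave 2 calls in all, both in a comparison in which 1.89% of all genes were called and 24.1% had an unadjusted p under 0.05. In rod-like cells of the mScarlet bleb, 1 of 21 transition zone genes was called, TMEM237, a membrane protein of the transition zone, at 127 and 123 CPM against 198 and 183 CPM in the uninjected areas (log2 difference -0.61, standard error 0.10, edgeR adjusted p = 0.0488). Of 21 genes of the photoreceptor axoneme and ciliary base, 1 was called, PCARE, a protein of photoreceptor disc formation, at 107 and 89.2 CPM against 163 and 146 CPM (log2 difference -0.65, standard error 0.11, edgeR adjusted p = 0.0488). With the eye as a block both calls were lost, at adjusted p-values of 0.136 and 0.120. Leaving out any of the 4 libraries compared also ended them, at adjusted p-values of 0.154 to 0.396 for TMEM237 and 0.128 to 0.375 for PCARE, and each was under 0.05 in 7 of 13 settings. The median log2 difference in that comparison was 0.06 over the transition zone genes and -0.15 over the axoneme and ciliary base genes, of which 4 of 21 were higher, against 0.01 over all genes, of which 7308 of 14386 were higher. In either list 4 genes had an unadjusted p under 0.05. None of 10 genes of lipidated cargo transport and none of 14 tested genes of tubulin glutamylation were called in it, with medians of -0.09 and -0.03 and with 1 and 4 unadjusted p under 0.05. In the other comparisons edgeR called no gene of these lists. In Müller glia-like cells of the mScarlet bleb against the uninjected area, the axoneme and ciliary base genes had a median of -0.34. There 5 of 21 were higher and 10 had an edgeR unadjusted p under 0.05, against 14.7% of all genes. Their medians were -0.08 in cone-like and -0.11 in bipolar-like cells between the same areas.

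Within the hRPGR blebs, rod-like cells with many coRPGR UMIs were set against those with few, which asks whether native genes vary with the amount of transgene in a cell. After thinning to 3000 UMIs per cell, few meant 0 to 2 and many 10 or more coRPGR UMIs. The right bleb gave 686 cells with few, 1730 between and 1851 with many, and the left bleb 2314, 1011 and 646. Rod-like cells with fewer than 3000 UMIs, 753 in the right and 568 in the left bleb, were left out. The sums were tested by edgeR with the library as a block. None of the 10 genes was called, 2 had an unadjusted p under 0.05, and DESeq2 called none. Of 12219 genes 0.115% were called and 12.8% had an unadjusted p under 0.05. The calls include coRPGR itself, whose difference was set by the sorting of the cells. With coRPGR left out of the counts 12 of 12218 genes were called and 0 of the 10. Cells with few coRPGR UMIs still held 672 CPM of it in the right and 224 CPM in the left bleb, both under the level in free RNA.

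RPGR stood at 62.3, 71.8 and 73.2 CPM in right-bleb cells with few, intermediate and many coRPGR UMIs, and at 73.2, 72.6 and 71.5 CPM in the left bleb. Cells with few coRPGR UMIs were the lowest in the right bleb and, by a small margin and only after TMM scaling, the highest in the left. Unscaled, RPGR stood at 61.6, 72.5 and 77.4 CPM in the right and at 68.5, 70.0 and 74.6 CPM in the left bleb, lowest with few in both. The TMM factors moved many minus few by -0.09 in the right and -0.16 in the left bleb on the log2 scale for every gene. On the scaled values the log2 difference of many minus few was 0.09 with a standard error of 0.08 (edgeR adjusted p = 0.716). RPGRIP1 differed between the eyes on either scale, at 152, 160 and 156 CPM in the right and 178, 149 and 144 CPM in the left bleb when scaled (log2 difference -0.15, standard error 0.09, adjusted p = 0.519). ARL3 was lower with more coRPGR UMIs in both eyes, at 477, 451 and 430 CPM in the right and 582, 563 and 505 CPM in the left bleb (log2 difference -0.18, standard error 0.06, unadjusted p = 0.017, adjusted p = 0.278), and unscaled at 471, 455 and 455 CPM and at 544, 542 and 527 CPM. PDE6D, its partner in cargo transport, stood at 93.9, 88.3 and 85.9 CPM and at 114, 107 and 102 CPM (log2 difference -0.15, standard error 0.06, adjusted p = 0.367). Unscaled it was nearly level, at 92.9, 89.1 and 90.7 CPM and at 107, 103 and 106 CPM. The median mitochondrial share ran from 0.74% to 0.54% of UMIs in the right and from 0.97% to 0.71% in the left bleb from few to many coRPGR UMIs, and its part was not tested. Of the 4 ciliary lists, none had a called gene.

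**Figure D5:**
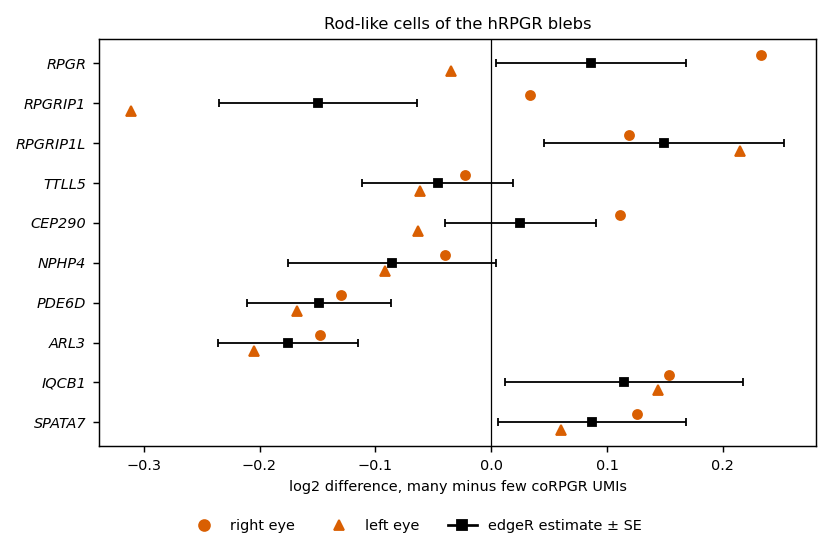
Difference of rod-like cells with many minus few coRPGR UMIs in the hRPGR blebs (horizontal axis, log2 of TMM-scaled CPM) for the 10 genes (rows). Circles and triangles are the right and left eye, and black squares with bars are the edgeR estimate ± SE. ARL3 and PDE6D lie below 0 in both eyes, at estimates of -0.18 and -0.15, of which the TMM factors make up -0.09 in the right and -0.16 in the left eye, and RPGRIP1 has the eyes on opposite sides of 0.

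Cone-like cells gave no such test, because the right bleb held 2 cells with few, 25 between and 289 with many coRPGR UMIs, and the left bleb 167, 18 and 2. Amount of transgene and eye could therefore not be told apart in cones. Cone-like cells with many coRPGR UMIs in the right bleb stood at 76.98 CPM of RPGR, 400 of RPGRIP1, 759 of TTLL5 and 237 of ARL3 (unscaled). Those with few in the left bleb stood at 60.4, 429, 847 and 326 CPM of the same genes in that order.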

How the data were processed

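The authors made the files with Cell Ranger on the macaque genome Mmul_10 with coRPGR, huRPE65 and mScarlet added, and deposited raw UMI counts of all barcodes (678289 to 717865 per library, 26533 features). From these, 91796 barcodes passed as cells (a minimum of 1500 UMIs and of 300 genes, a maximum of 20% mitochondrial), and the 8604 with the highest Scrublet scores (9.37%, set at 0.8% per 1000 cells) were removed as doublets, because the caller's own threshold marked almost none. Barcodes of 100 to 1000 UMIs stood for free RNA. The study's correction for free RNA and its integration were not repeated. Cells were clustered with scanpy 1.11.5 (3000 variable genes, 40 components, Leiden resolution 2) without the 10 genes, the ciliary lists and the transgenes. Of 62 clusters 38 were named "-like" from marker lists, by naming rules set after the clusters were seen, and 24 were left unnamed, so class names are rebuilt and may differ from the study's.

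Sums of UMI counts over each class of a library (at least 50 cells) were tested with edgeR 4.0.16 (filterByExpr, TMM, quasi-likelihood test, Benjamini-Hochberg at 0.05) over the 6 NHP2 libraries. DESeq2 1.42.0, RLE factors, no filter, a replicate block, a minimum of 3000 UMIs, other cell sets and leaving out each library were alternatives. On simulated rod-like sums of the hRPGR bleb against the uninjected area, with 14303 genes, 78.5% of 2-fold changes were recovered at an adjusted p of 0.05, and 5.99% of the calls were unchanged genes. The simulated counts had a fixed spread between libraries, not estimated from the data, and only genes above a minimum mean count were changed. These rates therefore need not hold for the real comparisons. The genes, lists and tests were chosen with earlier results of these data known. Named genes were the 10, the transgenes, list genes called by edgeR and the 5 genes most like RPGR and RPGRIP1. Replicate 1 is the right and replicate 2 the left eye of the same animal, so the numbers pair by eye. Left-minus-right deviations correlated between areas at -0.401 to 0.300 in rod-like and -0.299 to 0.350 in cone-like cells. RPGR was matched by identifier to RefSeq's gene table. Intervals cover counting error only.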

Additional observations from a re-analysis of the deposited data

Results flagged for a closer look

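Values of 3 genes lay on opposite sides in rod-like and cone-like cells, with both libraries of the bleb moving one way in rod-like cells and both the other way in cone-like cells relative to the same eye of the reference area. The same pattern was found for 15% of 11499 genes tested in both classes in the mScarlet bleb against the uninjected area (2 of the 10 genes), 9.2% between the blebs (2 of the 10) and 7.91% in the hRPGR bleb (0 of the 10). The differences between the cell classes were not tested, and none of the values below was called by edgeR. Between the mScarlet and hRPGR blebs RPGRIP1L had a log2 difference of 0.0194 in rods (standard error 0.0858) and -0.232 in cones (0.232), and IQCB1 0.0425 (0.0924) and -0.173 (0.153). Between the mScarlet bleb and the uninjected area CEP290 had -0.114 in rods (standard error 0.0874) and 0.226 in cones (0.136), and IQCB1 0.180 (0.0928) and -0.365 (0.148).

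Transgene molecules appeared in rod-like cells of libraries whose labels do not name that vector. There were 5052 coRPGR UMIs in the uninjected right area of NHP2, 818 coRPGR UMIs in the right mScarlet bleb and 14464 huRPE65 UMIs in the uninjected left area of NHP1. In the uninjected left area of NHP2 there were 0 coRPGR UMIs in rod-like cells.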

How the results depend on the processing

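Among the 10 genes the 1 call, TTLL5 in cone-like cells of the mScarlet bleb against the uninjected area, held in 8 of 13 settings. In the other comparisons the reported number was 0, so a count that stayed at 0 says nothing about stability. In rod-like cells of the mScarlet bleb against the uninjected area it was 1 with no filter and 1 with DESeq2 (RPGRIP1 both times), and 0 to 1 over fits that each left out a library. In cone-like cells of the same comparison it was 0 with the eye as a replicate block and 0 to 1 with a library left out. Between the mScarlet and hRPGR blebs it was 1 in cone-like cells with no filter and 1 with DESeq2 (TTLL5). In the mScarlet bleb against the uninjected area it was 1 in bipolar-like cells with no filter (ARL3, adjusted p = 0.0207, range over 12 settings 0.0207 to 0.669), and in Müller glia-like cells 0 to 1 with a library left out. The cause of these changes was not tested. The block changed no other call of the 10 genes. Of 1260 alternative values of the 110 fitted differences, 72 changed sign, none of them called. Of 30 alternative class differences between rod-like and bipolar-like cells, 0 moved by more than 1 SD. None of these alternatives added the unnamed clusters with rod markers to the rod-like class, so they say nothing about that choice.

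Counts over all genes were less stable. In rod-like cells of the mScarlet bleb against the uninjected area 272 genes were called, 4 with the block, 21 with the unnamed rod clusters added, 1412 with no filter, 1509 with DESeq2, and 0 to 1492 with a library left out. In rod-like cells of the hRPGR bleb 0 were called, 103 with no filter, 92 with DESeq2 and up to 239 without its left library. In cone-like cells of the mScarlet bleb 76 became 24 with the block, 1105 with no filter, 278 with DESeq2, 538 in cluster 21 alone and 10 to 300 with a library left out. In the other comparisons the calls were 2, with 130 (no filter), 138 (DESeq2), 0 (block) and 0 to 167 (a library left out), between the blebs in rod-like cells, and 13, with 331, 47, 11 and 4 to 48, in cone-like cells. Cone-like cells of the hRPGR bleb had 2, with 410, 42, 4 and 0 to 75, and bipolar-like cells 0, with 103, 11, 8 and 0 to 32. Bipolar-like cells of the mScarlet bleb had 102, with 571, 95, 96 and 20 to 145. Müller glia-like cells had 1 in the hRPGR bleb, with 2, 28, 1 and 1 to 29, and 49 in the mScarlet bleb, with 115, 397, 34 and 1 to 575. Rod-like cells with many against few coRPGR UMIs gave 14 calls, 0 without the replicate block, 0 by 3 equal classes without thinning, 251 with 20 or more as many, 95 with RLE size factors, 180 with DESeq2 and 347 with no filter. With coRPGR itself left out of the counts there were 12. For that comparison no fit without either library had residual degrees of freedom, so it was not run. With 2 libraries a group, and 129 cone-like cells in the smallest sum, even differences of several standard errors could go uncalled. RPGRIP1 in rod-like cells of the mScarlet bleb against the uninjected area, at -0.48 with a standard error of 0.10, was not called (edgeR adjusted p = 0.063). A gene that was not called is therefore not shown to be unchanged.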
